A study of Homo sapiens with 12 samples.

Results

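Collagen hydroxylases and lysyl oxidases are the enzymes that modify proline and lysine residues of collagen inside the cell and cross-link the chains outside it. The account covers 10 of them: the prolyl 4-hydroxylase catalytic subunits P4HA1, P4HA2 and P4HA3, the lysyl hydroxylases PLOD1, PLOD2 and PLOD3, and the lysyl oxidases LOX, LOXL1, LOXL2 and LOXL4. Each was represented by the array probe set that the platform annotation pairs with its symbol alone, and for P4HA2, which had a second such probe set, by the brighter of them. All 10 were found among 14232 genes measured in this way.

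The cells were LN229, an established human glioblastoma line, and RNA was measured on 12 arrays in 4 groups of 3. Cells kept in 1% oxygen had received HIF1A siRNA, HIF2A siRNA (against the gene EPAS1) or non-targeting control siRNA, and the fourth group was kept in 20% oxygen with the control siRNA, so every group was transfected. Transfection took place 24 h after seeding, cells were moved to their oxygen level 48 h later, and they were harvested after a further 16 h. The series text sets group averages against the normoxic control, and its title asks for hypoxia-responsive genes specific to HIF-1A or to HIF-2A, alpha subunits of the hypoxia-inducible factors. There was 1 cell line, and the labels name no separate cultures for the replicates. The p-values therefore reflect the spread of these arrays alone, and that spread may be technical.

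The labelled targets were lowered in their groups. HIF1A fell 8.76-fold with HIF1A siRNA against hypoxic control siRNA (limma, log2 change -3.13, SE 0.27, adjusted p = 1.6e-04), and EPAS1 fell 6.04-fold with HIF2A siRNA (-2.59, SE 0.15, adjusted p = 3.1e-05). EPAS1 was also lower with HIF1A siRNA (-1.48, SE 0.15, adjusted p = 3.1e-04), so in that group effects of the 2 subunits cannot be told apart. In a bulk sample, fewer cells that express a gene and less RNA per cell cannot be told apart either. Of the glial markers, VIM and S100B averaged 12.2 and 10.6 on the log2 scale over the 12 arrays, while GFAP, AQP4 and SLC1A3 averaged 6.37, 3.21 and 4.40. AQP4 was under the lower quartile of the array (4.73 to 4.79) on all 12. Markers of other cell types were mixed. Of 6 endothelial markers 3 (PECAM1, TEK and KDR) were under the lower quartile on all arrays, while VWF (5.49 to 5.83) and CDH5 (5.14 to 5.63) were above it. Of 5 microglial markers PTPRC and AIF1 were under it on all arrays, while CD68 (8.23 to 8.85) was above the median and TYROBP ranged from 5.48 to 6.01. Of 6 epithelial markers EPCAM and CDH1 were under it, while KRT8 and KRT18 were bright, at 11.3 and 9.67 with hypoxic control siRNA. All 8 fibroblast markers measured were above the lower quartile on all arrays. Limma called 0 of the endothelial and epithelial markers in any of the 6 comparisons. An unadjusted p under 0.05 was reached by 1 endothelial and 1 epithelial marker with HIF1A siRNA against control siRNA, and by 1 and 2 of them with HIF1A siRNA against normoxia. The 3 HIF1A siRNA arrays had the lowest upper quartiles of the 12, at 8.22, 8.20 and 7.88, against 8.50, 8.27 and 8.34 for hypoxic control siRNA.

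Prolyl 4-hydroxylases add a hydroxyl group to proline, which keeps the collagen triple helix stable at body temperature, and P4HA subunits work in a complex with protein disulphide isomerase. Lysyl hydroxylases of the PLOD family modify lysine residues that later carry sugars or form cross-links. Both kinds of enzyme consume molecular oxygen and 2-oxoglutarate and need iron, the same chemistry as the prolyl hydroxylases that mark HIF for degradation. Lysyl oxidases are secreted copper enzymes that oxidise lysine and hydroxylysine side chains so that fibres become cross-linked, and they too consume oxygen. Several of these genes are known hypoxia-responsive genes in other cells, and stiff, cross-linked matrix is a known feature of many tumours.

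The start regions of 5 hydroxylase genes and LOX are printed. They show how the core letters of hypoxia response elements are placed in genes that were called in hypoxia and genes that were not. LOX was not called, and all its values lay below the lower quartile of their arrays, so a low level could not be told from no signal. Each window holds 250 bases before and 50 bases from the annotated start (RefSeq, GRCh38.p14), 5′ to 3′ on the gene's strand. Capitals mark ACGTG or GCGTG on either strand, so that a match on the opposite strand reads CACGT or CACGC. The windows are chr10:73096817-73097116 (minus strand) for P4HA1, chr5:132227042-132227341 (minus) for P4HA2, chr1:11934467-11934766 (plus) for PLOD1, chr3:146161135-146161434 (minus) for PLOD2, chr7:101217532-101217831 (minus) for PLOD3 and chr5:122078210-122078509 (minus) for LOX.
P4HA1: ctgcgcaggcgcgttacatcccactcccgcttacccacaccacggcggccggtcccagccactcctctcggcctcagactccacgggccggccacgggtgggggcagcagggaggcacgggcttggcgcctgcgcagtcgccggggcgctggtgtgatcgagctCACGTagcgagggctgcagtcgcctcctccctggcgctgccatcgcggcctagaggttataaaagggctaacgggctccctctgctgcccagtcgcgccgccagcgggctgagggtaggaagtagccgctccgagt
P4HA2: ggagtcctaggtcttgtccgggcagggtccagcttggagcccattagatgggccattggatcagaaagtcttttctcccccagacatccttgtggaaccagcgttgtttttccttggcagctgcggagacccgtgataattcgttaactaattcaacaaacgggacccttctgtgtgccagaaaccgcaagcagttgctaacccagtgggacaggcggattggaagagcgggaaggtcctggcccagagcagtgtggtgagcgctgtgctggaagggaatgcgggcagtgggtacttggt
PLOD1: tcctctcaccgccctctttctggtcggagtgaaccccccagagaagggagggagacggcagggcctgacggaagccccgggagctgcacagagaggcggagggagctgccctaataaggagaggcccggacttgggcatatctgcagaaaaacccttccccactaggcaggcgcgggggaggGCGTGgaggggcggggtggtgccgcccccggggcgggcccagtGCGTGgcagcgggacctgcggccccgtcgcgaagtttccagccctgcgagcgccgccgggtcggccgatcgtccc
PLOD2: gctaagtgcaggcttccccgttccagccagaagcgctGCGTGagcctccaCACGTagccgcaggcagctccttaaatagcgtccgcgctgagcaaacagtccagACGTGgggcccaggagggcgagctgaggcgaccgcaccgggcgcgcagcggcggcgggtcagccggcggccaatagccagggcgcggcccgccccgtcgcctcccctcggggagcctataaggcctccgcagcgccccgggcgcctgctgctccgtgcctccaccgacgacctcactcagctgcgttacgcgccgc
PLOD3: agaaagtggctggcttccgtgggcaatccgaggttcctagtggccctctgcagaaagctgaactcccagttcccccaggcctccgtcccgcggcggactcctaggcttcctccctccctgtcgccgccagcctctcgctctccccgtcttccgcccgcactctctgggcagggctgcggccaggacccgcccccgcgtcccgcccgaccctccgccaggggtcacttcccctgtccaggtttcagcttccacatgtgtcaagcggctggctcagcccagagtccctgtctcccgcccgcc
LOX: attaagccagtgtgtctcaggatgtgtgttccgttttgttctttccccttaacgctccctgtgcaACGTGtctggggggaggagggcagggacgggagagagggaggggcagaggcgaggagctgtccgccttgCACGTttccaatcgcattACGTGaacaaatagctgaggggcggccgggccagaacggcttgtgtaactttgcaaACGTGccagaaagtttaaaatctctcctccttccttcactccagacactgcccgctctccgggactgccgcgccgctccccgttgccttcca

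Windows were used for 8 of the 10 genes, all except P4HA3 and LOXL2, with 3 for LOX. P4HA3 had no window in the sources used here. LOXL2 was left out by choice and is not reported here, so a gene called in hypoxia is missing from this description. The P4HA1 window held 1 match, 86 bases before the start, and the PLOD1 window held 2, both GCGTG, 68 and 25 bases before it. The PLOD2 window held 3 matches at 213, 200 and 146 bases before the start. The windows of P4HA2, PLOD3, LOXL1 and LOXL4 held 0. The most upstream LOX window held 4 matches, and the other LOX windows, which overlap each other, held the same 2 matches. Among all 35116 windows of this length, 48.4% held at least 1 match, 23.1% at least 2 and 10.1% at least 3. Among the 16426 windows of genes tested here the shares were 55.4%, 27.4% and 12.2%, so these short letters are common. A match is a description of the sequence and not a binding site.

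In hypoxia with control siRNA, set against normoxia with control siRNA, 5 of the 10 genes rose and 0 fell: P4HA1, P4HA2, PLOD1, PLOD2 and LOXL2. The rises ran from 4.19-fold for P4HA1 to 1.59-fold for PLOD2. Across all genes, 3.37% were called higher and 8.95% lower at an adjusted p under 0.05 (limma, Benjamini-Hochberg over all genes). The median log2 change of the 10 was 0.43, and that of all genes was -0.03. The same 5 genes were those whose 3 hypoxic values lay above all 3 normoxic ones, a pattern found in 12.1% of all genes. Among 7 glial markers S100B (-0.63) and NES (-0.41) were called lower in hypoxia, and among 8 fibroblast markers COL1A1, a collagen I chain and so a substrate of these enzymes, was called higher (0.77). Their part in the result was not tested. PLOD3 was the only member whose hypoxic values all lay below the normoxic ones, as in 26.3% of all genes, and its change was not called.

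Among the prolyl 4-hydroxylases, P4HA1 (probe set 3294159), the subunit of the most widely expressed form of the enzyme, had log2 values of 12.23, 12.06 and 12.08 in hypoxia, against 10.16, 10.00 and 10.01 in normoxia. The gap between the groups was many times the spread within either, and the rise of 2.07 (SE 0.19, n = 3 per group, adjusted p = 1.0e-04) ranked 20 among the 14232 genes by log2 change. P4HA2 (2875193), an alternative catalytic subunit, stood at 12.03, 11.95 and 11.96 in hypoxia, against 10.60, 10.49 and 10.48 in normoxia. Again the groups did not overlap, with a 2.74-fold rise (log2 change 1.46, SE 0.12, adjusted p = 3.4e-05). P4HA3 (3381879), the third subunit, had values of 4.84, 4.80 and 4.81 in hypoxia, against 4.93, 4.78 and 4.77 in normoxia. The groups overlapped, and its change of -0.01 had a 95% confidence interval from -0.22 to 0.20. These values lay near the lower quartile of the arrays, and no background signal accompanies the deposited values, so a low level of P4HA3 could not be told from no signal.

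The second probe set of P4HA2 (2875257) did not follow the first. It had values of 5.50, 5.71 and 5.94 in hypoxia, against 5.26, 5.69 and 6.04 in normoxia, and its change was 0.05 (adjusted p = 0.918 when it stood for the gene). Its values lay below the median of every array, and which transcripts it detects is not given in the sources used here. The rise of P4HA2 therefore rests on the brighter probe set.

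Among the lysyl hydroxylases, PLOD1 (2320581), which acts on lysines in the helical part of collagen, stood at 11.31, 11.40 and 11.46 in hypoxia, against 10.22, 10.26 and 10.28 in normoxia. It rose 2.20-fold (log2 change 1.14, SE 0.12, adjusted p = 3.2e-04), with the groups far apart. PLOD2 (2699564), which acts on the lysines of the collagen ends and so sets the type of cross-link, had 11.65, 11.34 and 11.38 in hypoxia, against 10.88, 10.72 and 10.77 in normoxia. Its groups did not overlap either, and the rise was smaller and less secure at 0.67 (SE 0.17, adjusted p = 0.0237). That call was lost when any of these 6 arrays was left out, with adjusted p-values between 0.0534 and 0.0816 and log2 changes between 0.57 and 0.72. PLOD3 (3064541), which also attaches sugars to hydroxylysine, had 11.07, 11.10 and 11.06 in hypoxia, against 11.14, 11.17 and 11.20 in normoxia. The change of -0.09 was not called (95% confidence interval -0.37 to 0.19), and it was positive with cyclic loess (0.05) and quantile normalization (0.0033).

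Among the lysyl oxidases, LOXL2 (3127818), which cross-links collagen IV of basement membranes among other substrates, stood at 11.86, 11.80 and 11.66 in hypoxia, against 10.74, 10.78 and 10.88 in normoxia. It rose 1.97-fold (log2 change 0.98, SE 0.11, adjusted p = 4.3e-04). LOX itself (2872848), the founding member of the family, had 3.70, 3.91 and 3.82 in hypoxia, against 3.46, 3.68 and 4.10 in normoxia. All 12 LOX values, from 3.46 to 4.35, lay below the lower quartile of their arrays, and the groups overlapped (log2 change 0.07, 95% confidence interval -0.33 to 0.46). A low level of LOX could thus not be told from no signal. Of 1069 genes with a mean level between 3 and 4, 0.561% were called higher and 0.468% lower in hypoxia. LOXL1 (3601348), best known for elastic fibres, had a change of 0.01 (95% confidence interval -0.20 to 0.23), and LOXL4 (3302693) one of 0.19 (-0.03 to 0.41). Neither was called, and values of the groups overlapped for each. Over all 12 arrays LOXL1 had values of 6.73 and above and LOXL4 ranged from 5.36 to 5.84.

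**Figure D1:**
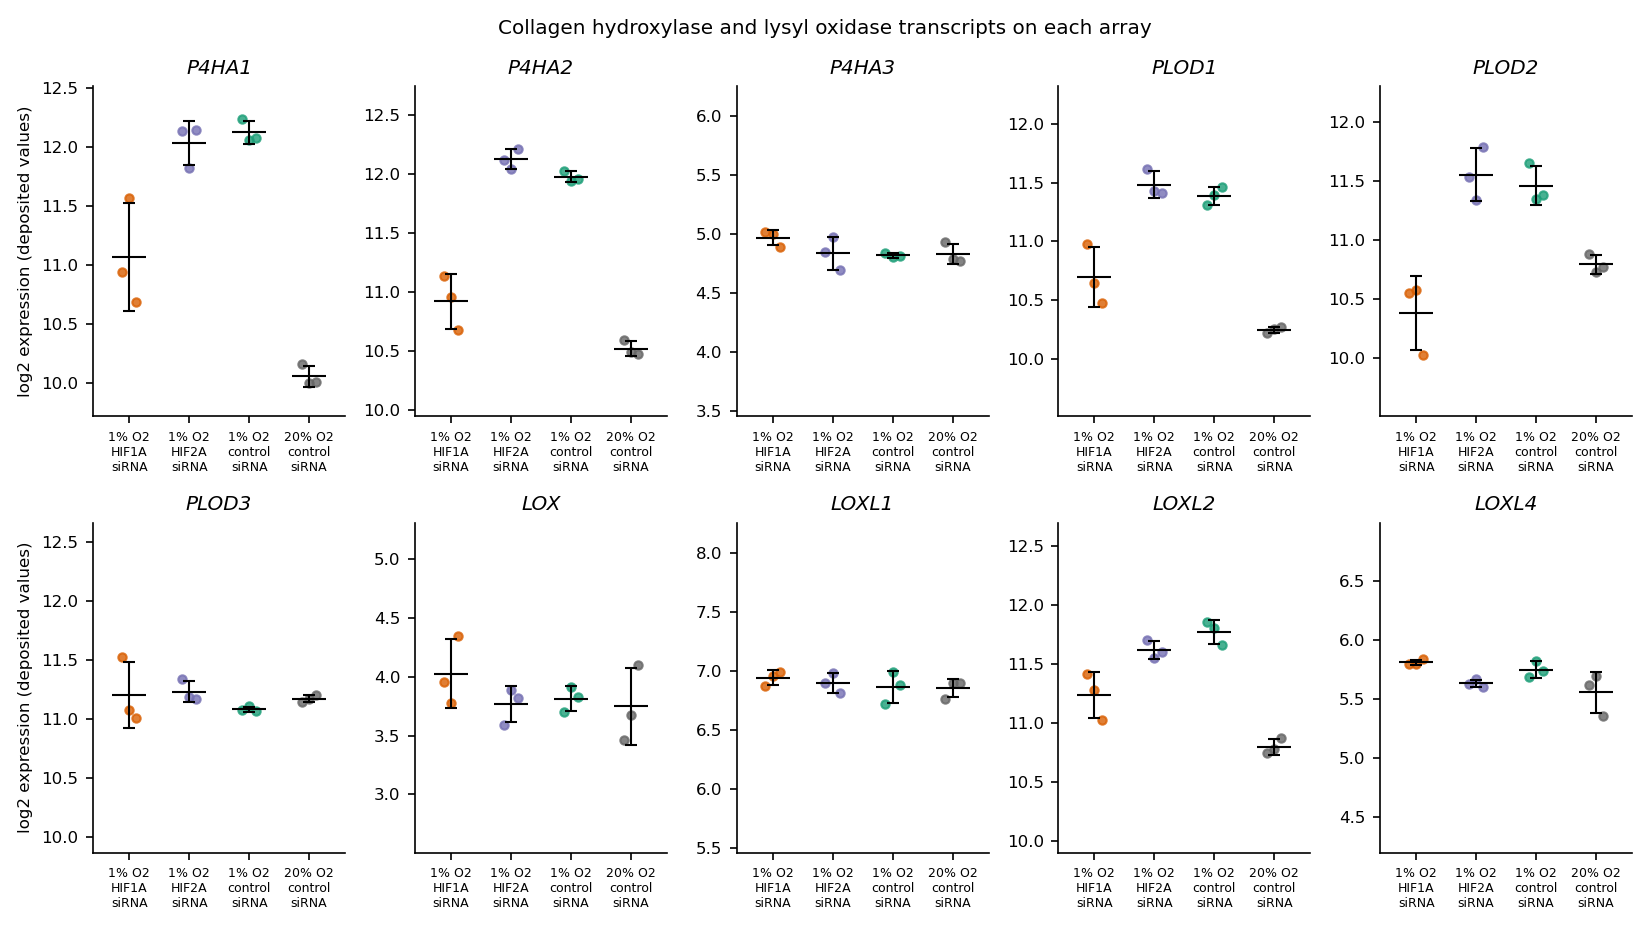
Log2 expression of each gene on all 12 arrays, in panels that each span 2.8 log2 units. Points are arrays, in the order of replicate numbers within a group, and bars are means ± SD (n = 3). P4HA1, P4HA2, PLOD1, PLOD2 and LOXL2 are high in 1% oxygen with HIF2A siRNA or control siRNA, lower with HIF1A siRNA, and the other 5 genes vary little between groups.

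The effect of HIF1A siRNA on these genes was examined in hypoxic cells by comparing it with control siRNA. Because this siRNA also lowered EPAS1 (-1.48), the comparison does not separate HIF-1A from HIF-2A. EPAS1 was lower still with HIF2A siRNA (mean 7.12, against 8.23 with HIF1A siRNA). In that group 0 of the 10 genes were called against control siRNA, as given below. Which subunit the changes rest on was not tested. HIF1A siRNA lowered P4HA1, P4HA2, PLOD1, PLOD2 and LOXL2, and 0 of the 10 genes rose. P4HA3 had its 3 values above the control values without a call, as in 11% of all genes. The falls ran from 2.11-fold for PLOD2 to 1.45-fold for LOXL2. Across all genes, 10.2% were called lower and 0.857% higher, and the medians of log2 change were -0.24 for the 10 genes and -0.05 for all genes. For each of the 5 genes all 3 values with HIF1A siRNA lay below all 3 control values, as in 19.8% of all genes. Of 7 glial markers measured, S100B alone was called with HIF1A siRNA, at 10.98 ± 0.20 and at 10.13 ± 0.03 with control siRNA (limma, adjusted p = 0.0029). Of 8 fibroblast markers, FAP (-0.94, adjusted p = 0.0247) and DCN (-0.65, adjusted p = 0.0181) were called lower, and 0 of 5 microglial markers were called. The mean log2 level of the fibroblast list was 6.61 to 6.89 on arrays with HIF1A siRNA and 6.98 to 7.06 with control siRNA, and that of the glial list was 7.53 to 7.65 with HIF1A siRNA and 7.39 to 7.47 with control siRNA. The part of these markers in the result was not tested. The comparison with normoxia and this one both use the hypoxic control arrays, so a high value on them raises the one change and lowers the other.

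P4HA1 had 10.94, 11.57 and 10.69 with HIF1A siRNA, against 12.12 ± 0.10 with control siRNA (mean ± SD, n = 3), a 2.08-fold fall (log2 change -1.06, SE 0.19, adjusted p = 0.0081). P4HA2 had 11.14, 10.96 and 10.68, against 11.98 ± 0.05 with control siRNA, also a 2.08-fold fall (-1.05, SE 0.12, adjusted p = 5.5e-04). The dimmer P4HA2 probe set again did not follow, with a change of 0.05 (adjusted p = 0.856). The P4HA1 values were the more scattered, and the SD of 0.46 was the largest of any member in any group.

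PLOD1 had 10.98, 10.65 and 10.48 with HIF1A siRNA, against 11.39 ± 0.08 with control siRNA, a 1.61-fold fall (-0.69, SE 0.12, adjusted p = 0.0081). PLOD2 had 10.55, 10.57 and 10.02, against 11.46 ± 0.17 with control siRNA (-1.08, SE 0.17, adjusted p = 0.0034). LOXL2 had 11.41, 11.28 and 11.03, against 11.77 ± 0.10 with control siRNA (-0.53, SE 0.11, adjusted p = 0.0156). The LOXL2 fall was the smallest of the 5, and it lost its call without hypoxic control replicate 1 (-0.49, adjusted p = 0.077). In all 5 genes the lowest of these 6 arrays was HIF1A siRNA replicate 3, which also had the lowest HIF1A value (7.74, against 8.20 and 9.06 on replicates 1 and 2) and the lowest upper quartile. Without that replicate all 5 genes were still called. With the spread taken from the 2 groups compared alone, only P4HA2 was called, and the adjusted p-values of limma for the other 4 lay between 0.055 for PLOD2 and 0.132 for LOXL2.

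The 5 genes that did not fall with HIF1A siRNA had log2 changes between 0.06 (LOXL4) and 0.21 (LOX), none of them called. PLOD3 had 11.52, 11.08 and 11.01 with HIF1A siRNA, against 11.08 ± 0.02 with control siRNA, and its change of 0.12 had a 95% confidence interval from -0.16 to 0.40. PLOD3 and the 5 genes that fell belong to the 766 genes with a mean between 10 and 12 over the arrays. The median change of those 766 was -0.20, and 15.1% of them were called lower, so each of the 5 falls was larger than the median at that level. Across all genes the median change with HIF1A siRNA was positive at levels under 7 and negative above it. With quantile normalization the falls were -0.99 (P4HA1), -0.96 (P4HA2), -0.55 (PLOD1), -0.91 (PLOD2) and -0.44 (LOXL2), and all were still called.

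**Figure D2:**
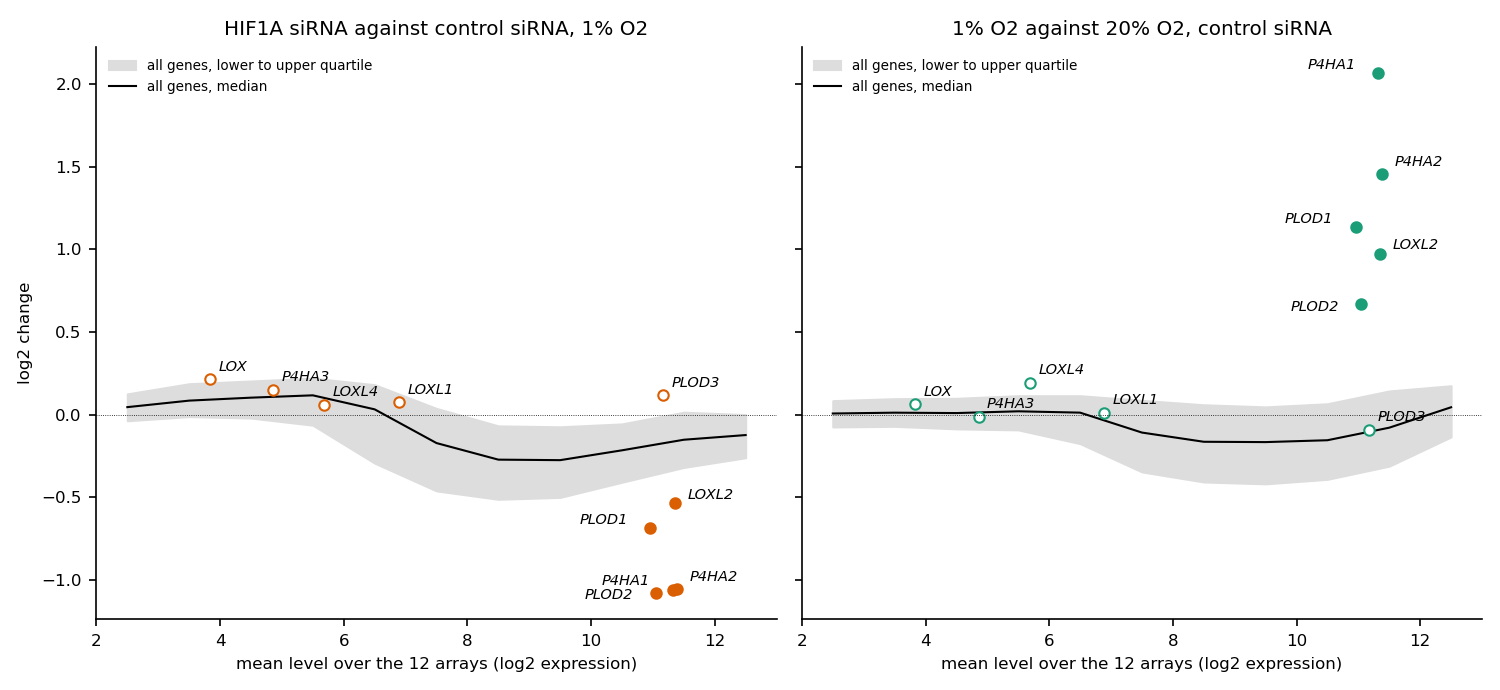
Log2 change of each member (vertical axis) by its mean level over the 12 arrays (horizontal axis, log2), for HIF1A siRNA against control siRNA in 1% oxygen (left) and for 1% against 20% oxygen with control siRNA (right). Filled points are called at an adjusted p under 0.05. The black line and grey band give the median and quartiles of all 14232 genes in level bins. The 5 responding genes lie outside the band in each panel. So do PLOD3 and LOX at left and LOXL4 at right, which were not called.

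The same was done for HIF2A siRNA. With HIF2A siRNA against control siRNA, 0 of the 10 genes were called by limma, and 0 had an unadjusted p under 0.05. Across all genes 0.00703% were called lower, which is EPAS1 alone, and 0 were called higher, so this comparison gave few calls of any kind. The median log2 change was 0.03 for the 10 genes and -0.01 for all genes. P4HA1 had 12.14, 11.82 and 12.14 with HIF2A siRNA, against 12.12 ± 0.10 with control siRNA (log2 change -0.09, 95% confidence interval -0.51 to 0.33). P4HA2 had 12.12, 12.05 and 12.22, against 11.98 ± 0.05 with control siRNA (0.15, -0.11 to 0.41). Its 3 values and those of PLOD3 lay above the control values, as in 4.46% of all genes.

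PLOD1 had 11.61, 11.42 and 11.41 with HIF2A siRNA, against 11.39 ± 0.08 with control siRNA (0.10, 95% confidence interval -0.18 to 0.37). PLOD2 had 11.53, 11.34 and 11.79, against 11.46 ± 0.17 with control siRNA (0.09, -0.27 to 0.46). LOXL2 had 11.71, 11.55 and 11.60, against 11.77 ± 0.10 with control siRNA (-0.15, -0.40 to 0.09). LOXL2 had the lowest of the 10 changes, with overlapping groups. LOXL4 had its 3 values below the control values (-0.12), as in 4.9% of all genes. The intervals reach at most 0.51 below 0, so a fall as large as the PLOD1, P4HA1, P4HA2 or PLOD2 change with HIF1A siRNA lies outside each gene's own interval. The LOXL2 change of -0.53 with HIF1A siRNA also lies outside the gene's interval with HIF2A siRNA. For LOXL2, however, the intervals of the 2 siRNAs overlap, with a lower bound of -0.40 with HIF2A siRNA and an upper bound of -0.29 with HIF1A siRNA.

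**Figure D3:**
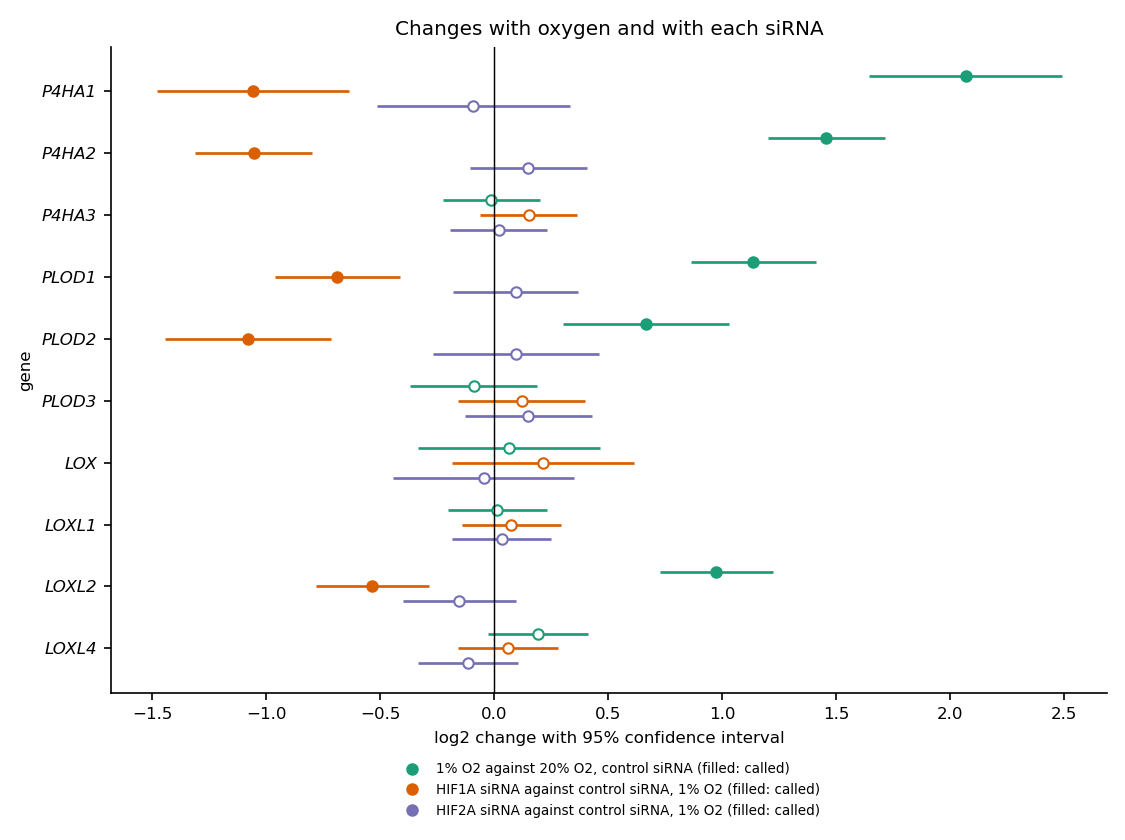
Log2 changes of the 10 genes (points) with 95% confidence intervals (lines) for hypoxia against normoxia, HIF1A siRNA against control siRNA and HIF2A siRNA against control siRNA. Filled points are called at an adjusted p under 0.05. P4HA1, P4HA2, PLOD1, PLOD2 and LOXL2 lie right of 0 with hypoxia and left of 0 with HIF1A siRNA, and none of the 10 is called with HIF2A siRNA.

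The 2 siRNA groups were also set against each other. P4HA2 was lower with HIF1A siRNA than with HIF2A siRNA by 2.30-fold (log2 change -1.20, SE 0.12, adjusted p = 3.2e-04), PLOD2 by 2.25-fold (-1.17, SE 0.17, adjusted p = 0.0025), PLOD1 by 1.72-fold (-0.78, SE 0.12, adjusted p = 0.0047) and P4HA1 by 1.96-fold (-0.97, SE 0.19, adjusted p = 0.0146). These 4 of the 10 compare with 8.53% of all genes called lower and 0.899% called higher. In the same comparison the fibroblast markers FAP (-1.01) and DCN (-0.67) were called lower and the glial marker S100B (0.65) higher, and their part in the result was not tested. The P4HA1 call was lost without HIF2A siRNA replicate 1 or 3 (adjusted p = 0.0705 and 0.0691), and with the spread taken from the 2 groups alone only P4HA2 was called. LOXL2 had 11.24 ± 0.20 with HIF1A siRNA and 11.62 ± 0.08 with HIF2A siRNA, and the difference of -0.38 (SE 0.11) missed the threshold (adjusted p = 0.0565). In LOXL2 the 3 values with HIF1A siRNA lay below the 3 with HIF2A siRNA, as in 18.7% of all genes. It was called by limma in 3 other settings: without HIF1A siRNA replicate 1 (-0.47, adjusted p = 0.0286), with a trended and robust prior (adjusted p = 0.0482) and with probe sets under the median level left out (adjusted p = 0.0384).

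Against normoxia, HIF1A siRNA left different remainders of the rise. P4HA1 was still 2.01-fold higher in hypoxia with HIF1A siRNA than in normoxia, at 11.07 ± 0.46 and 10.06 ± 0.09 (log2 change 1.01, SE 0.19, adjusted p = 0.0051). PLOD1 was higher by 0.45 (SE 0.12, adjusted p = 0.0191), LOXL2 by 0.44 (SE 0.11, adjusted p = 0.0138) and P4HA2 by 0.40 (SE 0.12, adjusted p = 0.0225). PLOD2 went the other way, at 10.38 ± 0.31 with HIF1A siRNA and 10.79 ± 0.08 in normoxia, and the difference of -0.41 (SE 0.17) was not called (adjusted p = 0.0735). Each of the 3 PLOD2 values with HIF1A siRNA lay below each normoxic value, as in 37.8% of all genes. Among the 766 genes with a mean between 10 and 12, PLOD2 included, the median in this comparison was -0.35. Of those genes 43.6% were called lower and 3.52% higher, so the PLOD2 difference was near the median at its level. The values of 5 of the 10 genes lay all above normoxia, as in 16.7% of all genes: P4HA1, P4HA2, PLOD1, LOXL2 and LOXL4. The LOXL4 difference of 0.26 was not called (adjusted p = 0.0665). Across all genes 4.67% were called higher and 30.4% lower in this comparison, with a median of -0.12 on the deposited scale and 0.08 after quantile normalization. Of the markers, COL1A1 (0.63), CD68 (0.41), TYROBP (0.36) and GFAP (0.34) were called higher in this comparison, and FAP (-1.20), DCN (-0.59) and PDGFRB (-0.39) lower. Their part in the result was not tested.

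The scale of the arrays mattered here. With quantile normalization the remainders were 1.29 for P4HA1, 0.75 for PLOD1, 0.65 for LOXL2 and 0.65 for P4HA2, and PLOD2 stood at -0.13. Without normoxia replicate 1, PLOD1, LOXL2 and P4HA2 lost their calls (adjusted p = 0.0656, 0.0565 and 0.0522), and P4HA2 lost its call also without normoxia replicate 2 or 3 or HIF1A siRNA replicate 1, with a highest adjusted p of 0.0704. P4HA1 was called in each of these fits, and it alone was called with the spread taken from the 2 groups compared. PLOD2 was called lower when probe sets under the median level were left out (adjusted p = 0.0472). LOXL4 was called higher by limma with quantile normalization (0.29, adjusted p = 0.0467) and with arrays centred on their medians (0.44, adjusted p = 0.0167). P4HA3 was called higher only with arrays so centred (0.32, adjusted p = 0.0285), and PLOD3 only with cyclic loess (0.30, adjusted p = 0.0479).

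In hypoxia with HIF2A siRNA, P4HA1, P4HA2, PLOD1, PLOD2 and LOXL2 were higher than in normoxia, by 1.98, 1.61, 1.23, 0.76 and 0.82 on the log2 scale, against 2.85% of all genes called higher and 6.79% called lower. The adjusted p-values of limma lay between 2.0e-05 for P4HA2 and 0.0156 for PLOD2. The PLOD2 call was lost without HIF2A siRNA replicate 3 or normoxia replicate 2 or 3 (adjusted p between 0.0587 and 0.0627). Of the markers, COL1A1 (0.90) was called higher here, and NES (-0.40) and PDGFRB (-0.31) lower, and their part was not tested. These values use the same normoxic arrays as the comparison with control siRNA.

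Over the 4 groups, P4HA1 therefore ran from hypoxia with control siRNA and hypoxia with HIF2A siRNA, which were not called different, down to HIF1A siRNA and then normoxia, with both of these steps called. In P4HA2 and PLOD1 the HIF2A siRNA group had the highest mean, with control siRNA next and not called different. HIF1A siRNA and then normoxia came below, each step called. In LOXL2 the order was control siRNA, HIF2A siRNA, HIF1A siRNA and normoxia, and only the last step was called. In PLOD2 the lowest group was HIF1A siRNA, next to normoxia without a called difference. In P4HA3, PLOD3, LOX, LOXL1 and LOXL4 no neighbouring groups were called different.

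Likeness to other genes was measured as the root mean square difference over the 12 arrays between log2 values centred on each gene's own mean. The genes most like P4HA1 were DDIT4, an inhibitor of mTORC1 signalling (0.15), the homeobox gene HOXB9 (0.20) and ADM, which encodes the vasodilator peptide adrenomedullin (0.24). Those most like P4HA2 were ANKZF1, of ribosome quality control (0.10), the mannose phosphate isomerase gene MPI (0.11) and CCNG2, an atypical cyclin (0.13). Those most like PLOD2 were the zinc finger gene ZFP82 (0.09), the metalloprotease ADAM12 (0.09) and TPD52 (0.11). Those most like LOX were NMBR (0.10), HAND1 (0.11) and HRH2 (0.12). They were not called in hypoxia or with either siRNA, but they were picked for their likeness to the uncalled LOX. Their lack of calls therefore says nothing more about LOX. Among the 10 genes themselves, the nearest pair of genes called in hypoxia was PLOD1 and LOXL2 (0.19), followed by P4HA2 and PLOD1 (0.21).

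Of 23 other listed genes of collagen maturation 16 were measured. In hypoxia 1 rose and 2 fell (median log2 change -0.0022), beside 3.37% and 8.95% of all genes (median -0.03). The list thus stood near the background on the deposited scale. More of its genes were called higher in hypoxia with quantile normalization and with cyclic loess, as listed at the end. PCOLCE2, an enhancer of procollagen C-proteinase, rose to 7.68 ± 0.20 in hypoxia, against 7.20 ± 0.07 in normoxia (0.48, SE 0.13, adjusted p = 0.0335). FKBP14, a peptidyl-prolyl isomerase of the endoplasmic reticulum, fell to 8.86, 8.57 and 8.76 in hypoxia, against 9.90, 9.72 and 9.74 in normoxia (-1.06, SE 0.18, adjusted p = 0.0041). ADAMTS3, a procollagen N-proteinase, fell by 0.68 (SE 0.18, adjusted p = 0.0353). The PCOLCE2 call was lost without any 1 normoxia array, or without hypoxic control replicate 1 or 3 (adjusted p up to 0.126), and the ADAMTS3 call without any of these 6 arrays (up to 0.140), while FKBP14 was called in every fit run.

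With HIF1A siRNA 2 of these 16 genes fell and 0 rose, at a median of -0.0017, beside 10.2% of all genes called lower and 0.857% higher (median -0.05), which is again near the background. PCOLCE2 had 6.83, 6.79 and 6.77, against 7.69, 7.46 and 7.87 with control siRNA (log2 change -0.88, SE 0.13, adjusted p = 0.0026), and its groups did not overlap. P3H2, a collagen prolyl 3-hydroxylase, had 8.13 ± 0.33 with HIF1A siRNA and 8.86 ± 0.12 with control siRNA (-0.72, SE 0.15, adjusted p = 0.0141). The P3H2 call was lost without hypoxic control replicate 1 (adjusted p = 0.0709) and with the spread taken from the 2 groups alone (adjusted p = 0.124). FKBP14 had 8.77 ± 0.37 with HIF1A siRNA, 8.84 ± 0.25 with HIF2A siRNA and 8.73 ± 0.15 with control siRNA, and was not called with either siRNA (0.04 and 0.11, SE 0.18 each). With HIF2A siRNA limma called 0 of the 16, and 0 had an unadjusted p under 0.05. The collagen chaperone SERPINH1 stood at 0.39 in hypoxia (adjusted p = 0.0722), was called higher there in 7 of 20 settings, with adjusted p-values from 0.0019 to 0.192, and was called higher with HIF2A siRNA against normoxia (0.46, adjusted p = 0.0427). P4HB, the partner of the P4HA subunits, and LOXL3 were among the 7 listed genes not analysed here.

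**Figure D4:**
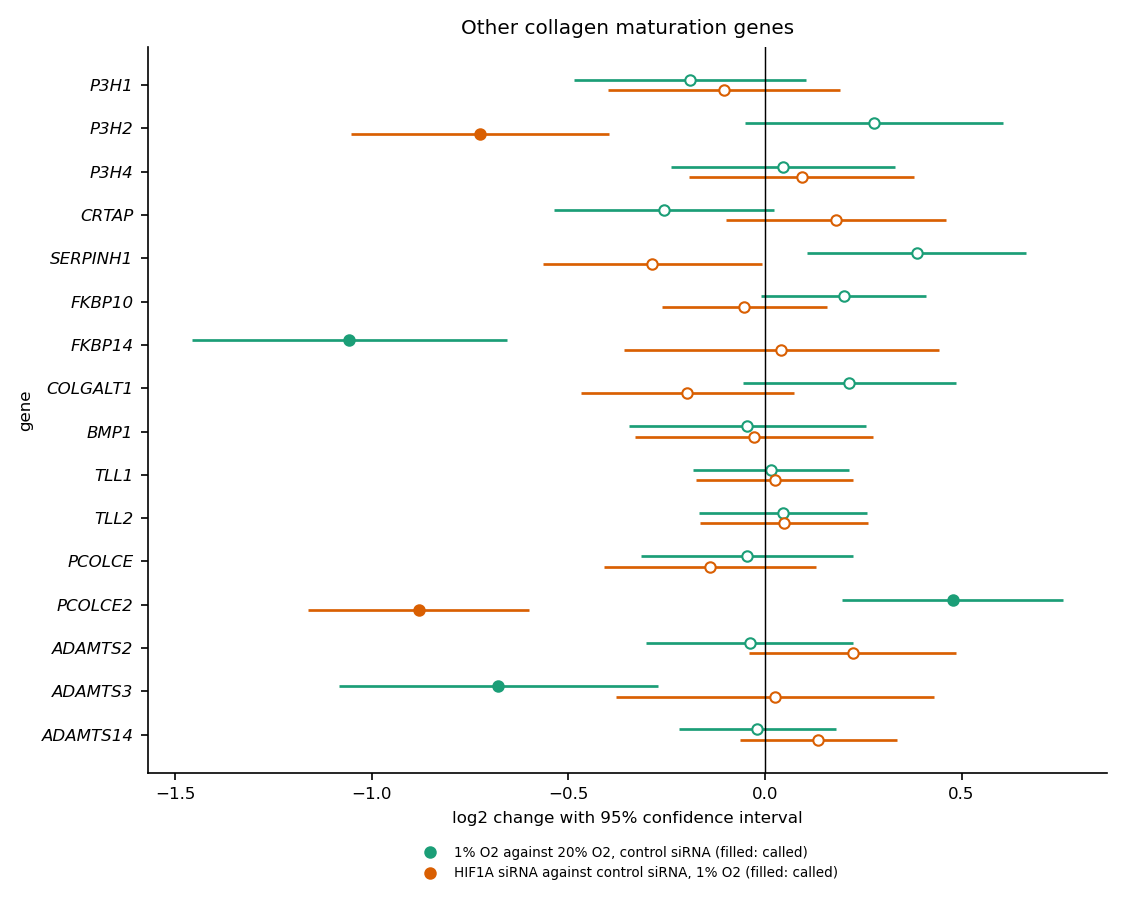
Log2 changes (points) with 95% confidence intervals (lines) of the 16 other collagen maturation genes for hypoxia against normoxia and for HIF1A siRNA against control siRNA. Filled points are called at an adjusted p under 0.05. PCOLCE2 is called higher in hypoxia and lower with HIF1A siRNA, FKBP14 and ADAMTS3 are called lower in hypoxia, and P3H2 is called lower with HIF1A siRNA.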

How the data were processed

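RNA of 12 LN229 samples was labelled with an Affymetrix whole transcript assay, per the labels' protocols. The deposited values are log2 expression by the authors, 1 per probe set and array, with the base inferred from their range (1.14 to 14.3). Partek and the build hg18 are named, per the submitters' processing notes. How background, summarization and scaling were handled is not given in the sources used here, and array medians differed (6.49 to 6.82), so scaling was tried as an alternative.

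Of 22011 probe sets, 14432 were paired with 1 gene symbol, and the probe set with the highest mean stood for the 197 genes with several. Group means were fitted with limma 3.58.1 (R 4.3.3) over all arrays. P-values were moderated by eBayes and adjusted by Benjamini and Hochberg over 14232 genes in each of 6 comparisons, with calls at an adjusted p under 0.05. Errors are limma's standard errors (SE), and 3 arrays per group limit the precision. The test was tried on simulated data first. The promoter search and plots used pandas 2.3.3 and matplotlib 3.10.9. Named genes are the members, HIF1A, EPAS1, called collagen maturation genes, and the 3 genes most like P4HA1, P4HA2, PLOD2 and LOX. Markers were named from 5 cell type lists outside that rule, after their values were seen: those called in a comparison, and some that were low or bright. FKBP10, COLGALT1, CRTAP and the pairs of members most alike were also added after their values were seen. The range of levels from 10 to 12 was chosen after the members' levels were seen. Members, lists and tests were chosen with earlier results of these data known.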

Additional observations from a re-analysis of the deposited data

How the results depend on the processing

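With 19 other settings and the other P4HA2 probe set, the changes of the 10 genes kept their direction and side of the threshold, or were called in neither direction, in 1087 values. They lost a call in 30, gained one in 8 and reversed in 3. All 3 reversals came from the dimmer P4HA2 probe set: 0.055 for HIF1A siRNA against control siRNA, 0.17 for HIF1A siRNA against HIF2A siRNA and -0.060 for HIF2A siRNA against normoxia. Fits on only the 2 groups compared called 1 gene (in place of 5) for HIF1A siRNA against control siRNA, 1 (in place of 4) against HIF2A siRNA and 1 (in place of 4) against normoxia, and the fitted changes were the same, since only the spread was estimated from fewer arrays. Leaving out 1 array at a time gave 4 to 5 called genes for hypoxia against normoxia, 4 to 5 for HIF1A siRNA and 0 to 0 for HIF2A siRNA against control siRNA, 3 to 5 between the siRNAs, and 1 to 4 (HIF1A siRNA) and 4 to 5 (HIF2A siRNA) against normoxia. Of 18 pairs of arrays with the same replicate number in different groups, 5 deviated together from their group means at r over 0.1. Of 36 pairs with different numbers 11 did so, a similar share, and the numbers were not taken as pairs. With the replicate block the counts were 5, 5, 0, 4, 4 and 5, as without it.

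Over all genes the counts moved more. Without 1 array they ran from 806 to 2465 (1754 with all arrays) for hypoxia against normoxia, from 390 to 2648 (1573) for HIF1A siRNA and 1 to 1 (1) for HIF2A siRNA against control siRNA, from 268 to 2557 (1342) between the siRNAs, and from 2361 to 5042 (4986) and 588 to 2021 (1372) for HIF1A and HIF2A siRNA against normoxia. Fits on only the 2 groups compared gave 137 for HIF1A siRNA against control siRNA, 127 between the siRNAs, 3250 and 2131 for HIF1A and HIF2A siRNA against normoxia, and 2548 for hypoxia against normoxia. For HIF2A siRNA against control siRNA, scaling gave 3 or 4 calls. Rises made up 27.4% of calls in hypoxia on the deposited scale and 44.1% after quantile normalization, 7.76% and 39.2% with HIF1A siRNA against its hypoxic control, 9.54% and 44.9% between the siRNAs, 13.3% and 51.8% for HIF1A siRNA and 29.5% and 46.0% for HIF2A siRNA against normoxia. Quantile normalization moved the median of all genes to 0.07 from -0.05 for HIF1A siRNA against control siRNA and to 0.08 from -0.06 between the siRNAs. The settings for HIF1A, EPAS1 and the other collagen maturation genes were added after seeing the data. Of the latter, 5 in place of 1 were called higher in hypoxia with quantile normalization and with cyclic loess: PCOLCE2 (0.57 and 0.58), P3H2 (0.43 and 0.45), SERPINH1 (0.48 and 0.53), FKBP10 (0.36 and 0.37) and COLGALT1 (0.38 and 0.37). Among all 14232 genes, 946 and 1059 were called higher in hypoxia with these 2 scalings, in place of 480. With HIF1A siRNA against its hypoxic control, CRTAP was called higher with both (0.39 and 0.39). The signal of P4HA3 and LOX over background is unknown.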
